A study of Mus musculus with 12 samples.

Results

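Cytosolic ribosomal protein genes were described in CD4+ T cells of mice, before and during experimental autoimmune encephalomyelitis (EAE), which models multiple sclerosis. The genes were all those whose name on the array follows the pattern of the Rpl and Rps families, including the stalk genes Rplp0, Rplp1 and Rplp2, without the Rps6k kinases or the mitochondrial Mrp genes. This gave 84 of 30157 gene names, 52 named for the large subunit and 32 for the small one, and the rule for choosing genes uses their names alone. They were covered by 186 probes, and each gene was represented by its brightest probe. The study used 12 single-colour arrays, 1 per RNA sample, with 3 samples in each of 4 groups. Naive CD4+ T cells came from spleens of B6.2d2 mice, which carry a transgenic T cell receptor specific for myelin oligodendrocyte glycoprotein (MOG). Cultured Th17 cells were differentiated in vitro from such naive cells. Transferred CNS cells were cultured B6.2d2 Th17 cells given to Rag1-/- mice, which lack mature T and B cells of their own, and recovered from the central nervous system (CNS) at peak disease. Immunised CNS cells were CD4+ T cells recovered from the CNS of C57BL/6 mice at peak disease after immunisation with the MOG35-55 peptide, so this group carried no transgenic receptor. The series text states 3 independent experiments, and the labels give no ages, number of animals per sample or sort gate.

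The ribosome translates mRNA into protein. Its small subunit holds the mRNA and the decoding site, and its large subunit joins amino acids and releases the growing chain through an exit tunnel. Ribosomal protein mRNAs are among the most abundant in a cell, and their translation is controlled together through a pyrimidine tract at their 5′ ends that responds to mTOR signalling. T cells enlarge and raise protein synthesis when they leave the naive state. A few ribosomal proteins have close paralogues, and some bind p53 regulators or other partners outside the ribosome.

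The labelled cell type was checked first, on the log2 scale of signal relative to the array's 75th percentile that is used for every level below. Cd3e, a chain of the T cell receptor complex, had a mean level of 5.92 ± 0.07 in naive, 5.49 ± 0.26 in cultured Th17, 4.87 ± 0.29 in transferred and 5.25 ± 0.30 in immunised samples (SD, n = 3 each). Macrophage and monocyte markers were also present in the CNS samples. Their 17 genes summed to 54.1 to 120.0 times the 75th percentile signal on naive arrays, 34.5 to 63.7 on cultured, 901 to 1340 on transferred and 710 to 1410 on immunised arrays. Of these markers, 4 were not well above background on any naive array (Emr1, C1qc, Ms4a7 and Mrc1) and 2 on any cultured array (C1qa and C1qc), against 0 in either CNS group. Apoe, abundant in macrophages, had mean levels of −0.75, −2.03, 8.25 and 7.87 in the same order. Lyz2, encoding lysozyme, had mean levels of 4.20 and 5.50 in the CNS groups, and was well above background on 1 of 3 naive and 2 of 3 cultured arrays. The 10 neutrophil markers summed to 5.23 to 7.49 on naive, 11.8 to 17.2 on cultured, 5.97 to 179 on transferred and 478 to 609 on immunised arrays. In these bulk samples, fewer cells of a type and less RNA per cell cannot be told apart.

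Ribosomal protein mRNAs gave some of the brightest signals on every array. Of the 84 genes, 82 were well above background on all 12 arrays and were tested. The exceptions were Rpl3l and Rpl10l, copies best known from muscle and testis, which were well above background on 1 of 12 arrays each. On single arrays the median of the tested genes lay above 99.1% to 99.4% of the other genes tested. It was 8.04, 7.48 and 7.62 on the naive arrays, 7.61, 7.41 and 8.19 on the cultured, 7.75, 7.61 and 7.57 on the transferred, and 7.20, 7.30 and 7.20 on the immunised arrays. The immunised arrays were the lowest 3 of the 12, while the naive, cultured and transferred arrays overlapped. The brightest probes were those of Rps14, Rpl37a and Rplp2, with mean levels of 8.65, 8.64 and 8.55 over 12 arrays. The order of genes is not an order of abundance, because a signal also depends on the probe. No spot was saturated.

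**Figure D1:**
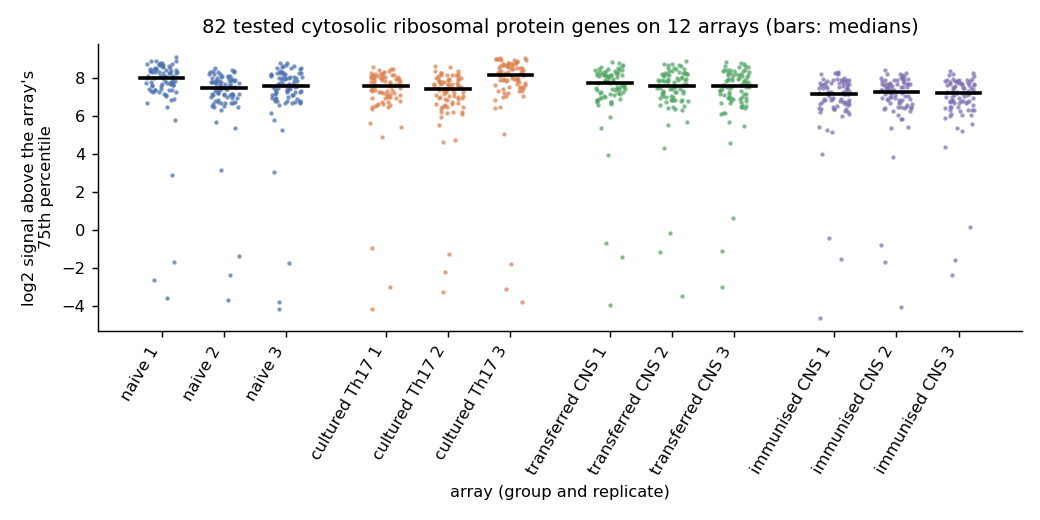
Level of each tested ribosomal protein gene (points) on each array, as log2 signal above the array's 75th percentile, with the array's median as a bar. The medians of the immunised arrays, 7.20 to 7.30, lie below those of the other 9 arrays, 7.41 to 8.19, and a few dim paralogues lie far below the rest.

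The first comparison asked how these genes differ between cultured Th17 and naive cells. Their median log2 difference was −0.01, against −0.08 over all 18645 genes tested, and 39 were positive and 43 negative. In limma with Benjamini-Hochberg adjustment over all genes tested, 2 of 82 were higher and 0 lower, whereas 19.7% of all genes were called higher and 20.3% lower. At an unadjusted p under 0.05, 4 of 82 passed in either direction. The share of all genes at that unadjusted threshold was not computed, here or in the comparisons below. The 2 that rose were Rps27l and Rps4y2, described below. The medians within the 3 slides, each of which held 1 array per group, were −0.43, −0.10 and 0.50. The third slide holds cultured Th17 replicate 3, the array with the highest median. Without that array 6 genes were called lower, and the share of all genes in that fit was not computed.

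Few of these genes differed after transfer. Between transferred CNS and cultured Th17 cells the median difference was −0.04, with 1 gene higher (Rps4y2) and 0 lower, against 12.8% and 15.5% of all genes. At an unadjusted p under 0.05, 2 of 82 passed. Between transferred CNS and naive cells the median was −0.02, with 2 higher (Rps27l and Rps4y2) and 0 lower, against 21.2% and 26.5% of all genes, and 2 of 82 passed at an unadjusted p under 0.05. Within slides the medians were 0.16, 0.24 and −0.57 for the first of these comparisons and −0.27, 0.18 and −0.01 for the second.

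**Figure D2:**
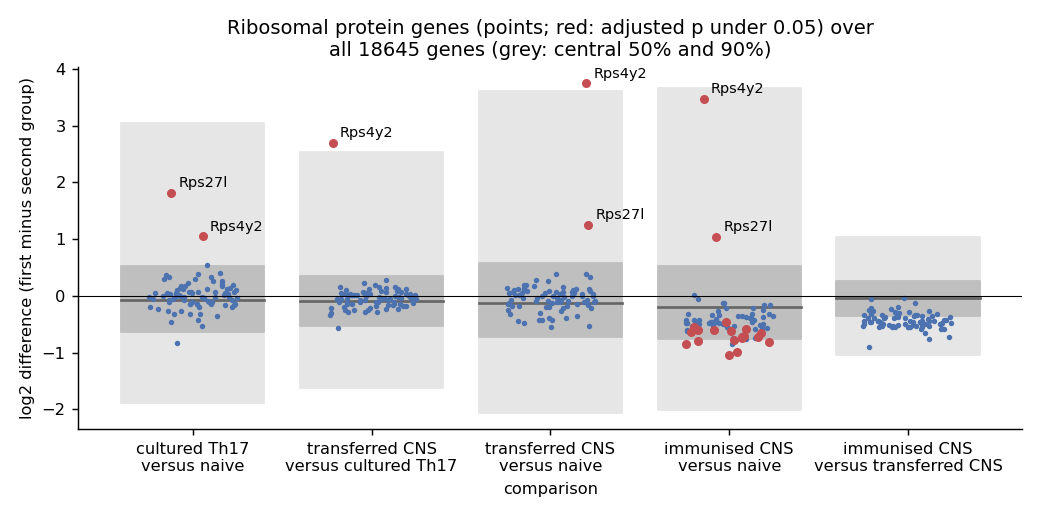
Log2 difference of each tested ribosomal protein gene (points, red where the limma adjusted p is under 0.05) in the 5 comparisons, over the central 50% and 90% of all 18645 genes (dark and light grey; line, median). Rps27l and Rps4y2 are the only points above 1, and the other genes form a narrow band around −0.01 to −0.47, depending on the comparison.

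The immunised CNS samples were the exception. Against naive cells the median was −0.47, with 79 of 82 differences negative, and 18 genes were lower and 2 higher (Rps27l and Rps4y2), against 27.8% and 20.6% of all genes. The share called lower, 18 of 82, was thus near the background. The arrays of the groups did not overlap for 70 of 82 genes, against 65.7% of all genes. Among the largest falls were Rps15a at −1.05 ± 0.26 (SE; adjusted p = 0.0068), the stalk-base gene Rpl12 at −0.85 ± 0.26 (adjusted p = 0.0194) and Rpl8, which lies near the peptidyl transferase centre, at −0.81 ± 0.24 (adjusted p = 0.0161). Within slides the medians were −0.81, −0.20 and −0.46. Neutrophil markers moved with this comparison, with 8 of 10 called higher and 1 lower and sums of 478 to 609 in immunised against 5.23 to 7.49 in naive samples, and their part in the result was not tested. The count of 18 lower genes became 2 without naive replicate 1, 9 without naive replicate 3, 51 without cultured Th17 replicate 3, and 5, 8 and 4 without immunised CNS replicates 1, 2 and 3. The share of all genes called in these fits was not computed.

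Against transferred CNS cells, the other CNS group, the immunised median was −0.45 and all 82 differences were negative. In limma 0 were called, against 1.85% of all genes higher and 1.37% lower. At an unadjusted p under 0.05, 30 of 82 passed, and the share of all genes at that threshold was not computed. The groups did not overlap for 73 of 82 genes, against 33.8% of all genes, and the medians within slides were −0.52, −0.40 and −0.41. Of 10 neutrophil markers 5 were called higher and 0 lower in this comparison, with a median of 4.05 and sums of 478 to 609 against 5.97 to 179, and their part in the result was not tested. Without cultured Th17 replicate 3, 4 genes were called lower, and the share of all genes in that fit was not computed.

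Other bright genes also had negative medians, and the family's medians changed with the scaling of the arrays. Among 765 genes outside the family with mean levels of 5.57 to 8.48, the range that holds 72 of the ribosomal protein genes, the median difference of immunised CNS cells was −0.35 against naive and −0.33 against transferred CNS cells. Under quantile normalization the family's medians were −0.13 and −0.07. In the authors' deposited values, whose normalization is not stated, they were also −0.13 and −0.07. Against naive cells, quantile normalization gave 3851 of all genes higher and 5794 lower, and the authors' values 3850 and 5790. These settings were thus nearly alike. Under median scaling the family's medians were −0.44 and −0.41, and 4 genes in place of 18 were lower against naive cells. Of all 18645 genes, 4271 in place of 5176 were lower there.

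**Figure D3:**
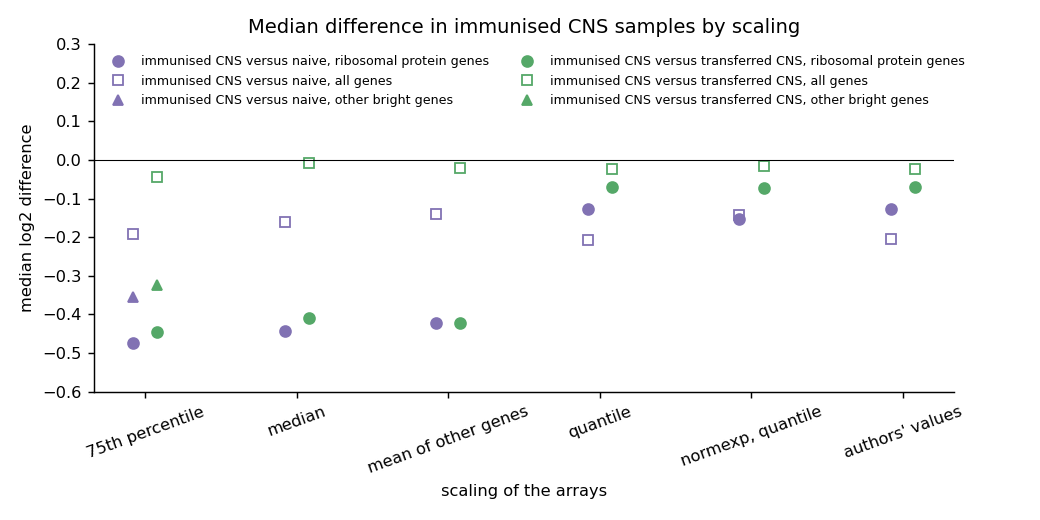
Median log2 difference of immunised CNS cells against naive (purple) and transferred CNS cells (green), for the ribosomal protein genes (filled circles), all genes (squares) and, on the main scale, other genes of like brightness (triangles), under 6 scalings of the arrays. The ribosomal medians lie at −0.47 and −0.45 on the main scale and at −0.13 and −0.07 after quantile normalization.

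Rps27l encodes a close relative of the small-subunit protein Rps27 and is known as a target of p53. Its level was 2.90, 3.16 and 3.06 on the naive arrays, 4.89, 4.64 and 5.05 on the cultured, 3.97, 4.31 and 4.62 on the transferred and 4.01, 3.85 and 4.40 on the immunised arrays. Every naive array was below every other array, and the cultured arrays were the highest 3. Rps27l was higher than in naive cells by 1.82 ± 0.21 in cultured Th17 cells (3.53-fold; adjusted p = 9.06e-05), 1.26 ± 0.21 in transferred CNS cells (2.39-fold; adjusted p = 0.000786) and 1.05 ± 0.21 in immunised CNS cells (2.07-fold; adjusted p = 0.00238). From culture to CNS it differed by −0.56 ± 0.21 (adjusted p = 0.071). In the same comparison of culture with naive cells, 10 of 17 macrophage and monocyte markers were called higher and 2 lower, with a median of 1.75, while the list's summed level was 34.5 to 63.7 in culture and 54.1 to 120.0 in naive samples. In the CNS groups these sums were 901 to 1340 and 710 to 1410. The part of these markers in the result was not tested. Rps27 itself had levels of 8.68, 8.25 and 8.71 in naive, 8.08, 7.97 and 8.61 in cultured, 8.31, 8.22 and 8.16 in transferred and 7.89, 8.13 and 7.85 in immunised samples. It was lower in immunised CNS than in naive cells by 0.59 ± 0.20 on the log2 scale, with a mean of 7.95 against 8.55 (adjusted p = 0.0329). The family's median in that comparison was −0.47. The call of Rps27 was lost in 10 of 23 alternatives, where its difference came as near 0 as −0.11.

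Rps4y2 is the array's name for a relative of the X-linked gene Rps4x, which RefSeq lists as Rps4l, a transcribed pseudogene. Its level was −3.57, −3.70 and −4.18 on the naive arrays, −3.01, −2.18 and −3.10 on the cultured, −0.67, −0.16 and 0.63 on the transferred and −0.43, −0.76 and 0.17 on the immunised arrays. All 12 values were well above background, and every CNS array was above every array of the other groups. Compared with naive cells it was higher by 3.75 ± 0.38 in transferred CNS cells (13.5-fold; adjusted p = 2.94e-05) and by 3.48 ± 0.38 in immunised CNS cells (11.1-fold; adjusted p = 4.89e-05). Compared with cultured Th17 cells, transferred CNS cells were higher by 2.70 ± 0.38 (6.50-fold; adjusted p = 0.000551). The rise in culture, 1.05 ± 0.38 (2.07-fold), passed narrowly (adjusted p = 0.0473), and the call was lost with the slide as a replicate block (adjusted p = 0.0685). Rps4x had mean levels of 6.84 in naive, 6.82 in cultured, 6.83 in transferred and 6.38 in immunised samples, and passed in no comparison. The rise of Rps4y2 in both CNS groups went with the macrophage markers given above, whose sums were 901 to 1340 and 710 to 1410 there. Of 8 microglia markers, 7 were called higher than in naive cells in transferred and 6 in immunised samples, and 0 lower. Of 10 neural and glial markers, 4 were higher and 2 lower in each. Of all genes, 21.2% were higher and 26.5% lower in transferred, and 20.6% and 27.8% in immunised samples. The part of these markers in the result was not tested.

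Because both risers have near relatives, part of each probe is shown, the first 30 of 60 bases as the array file lists them. The Rps27l probe spans 66795486 to 66797176 on mm9 chromosome 9, a longer stretch than its 60 bases, and the Rps4y2 probe spans 148304043 to 148304102 on mm9 chromosome 6.
Rps27l: aaagccaggctcacagaaggctgttcattt
Rps4y2: ggggaaggggcgtttacgtttgtttatact
The longest run of bases that the Rps27l probe shares with any Rps27 probe was 6, and the longest that the Rps4y2 probe shares with any Rps4x probe was 7. Only probes were compared with each other, and they may lie on different parts of the transcripts. The runs therefore do not show whether a probe can bind the mRNA of the relative.

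**Figure D4:**
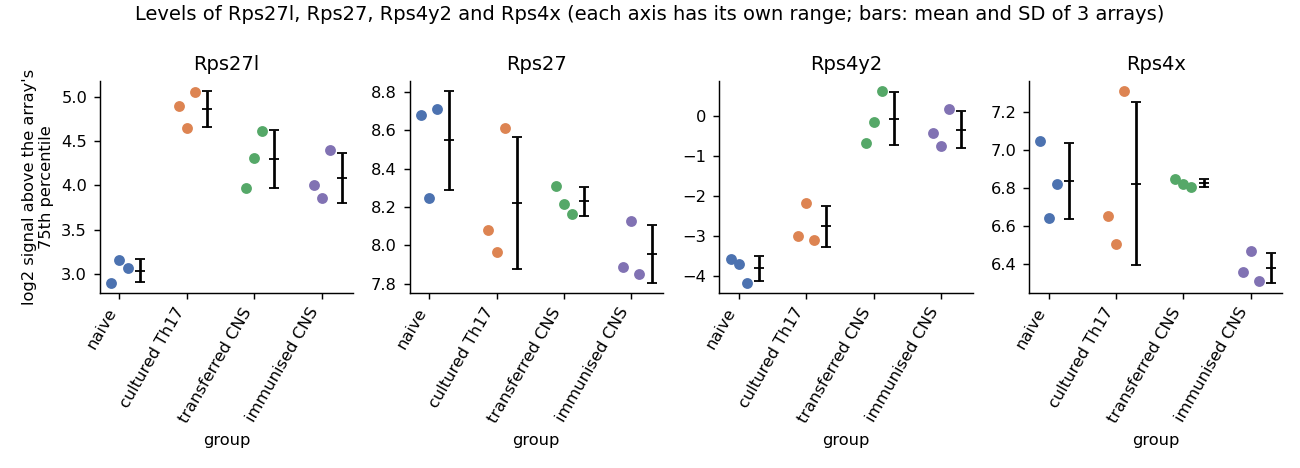
Level of Rps27l, Rps27, Rps4y2 and Rps4x on each array (points), as log2 signal above the array's 75th percentile, with the mean and SD of 3 arrays beside them. Rps27l is lowest in naive samples (2.90 to 3.16) and Rps4y2 is highest in the CNS groups (−0.76 to 0.63), while the mean of Rps27 is highest in naive samples (8.55) and that of Rps4x lies between 6.38 and 6.84.

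The other paralogues did not pass in any comparison. Rpl22l1, which can replace the RNA-binding protein Rpl22, had mean levels of 6.02, 5.55, 5.71 and 5.27 in naive, cultured, transferred and immunised samples. Rpl22, needed for the development of alpha-beta T cells, had a mean level of 7.42 in naive samples and differed from it by 0.33 in cultured, 0.16 in transferred and −0.42 in immunised samples, with no call. Rpl36al had 5.48, 5.88, 5.55 and 5.35, and Rpl36a had 6.41, 6.75, 6.52 and 5.62. Rpl36a was lower in immunised CNS than in naive cells by 0.78 ± 0.26 on the log2 scale (adjusted p = 0.0272). Rpl7l1 had mean levels from −1.60 to −1.21, and Rpl39l, best known from testis, from −3.75 to −2.93.

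The stalk of the large subunit recruits translation factors. It is built from Rplp0, Rplp1 and Rplp2 on a base that includes Rpl12. None of the 4 passed in the 3 comparisons without immunised samples. Rplp0 had levels of 8.89, 8.34 and 8.51 in naive, 8.47, 8.61 and 9.02 in cultured, 8.71, 8.74 and 8.67 in transferred and 8.23, 8.22 and 8.21 in immunised samples. Against naive cells, immunised CNS cells had Rplp1 at −0.80 ± 0.26 (adjusted p = 0.0266), and Rpl12 as given above, while Rplp0 at −0.36 ± 0.19 and Rplp2 at −0.42 ± 0.19 did not pass (adjusted p = 0.133 and 0.0991).

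Rpl5 and Rpl11, which with 5S rRNA form a particle known to bind Mdm2, passed in no comparison. Against naive cells, immunised CNS cells had Rpl5 at −0.85 ± 0.33 (adjusted p = 0.0509) and Rpl11 at −0.51 ± 0.24 (adjusted p = 0.104). Of 19 genes known from Diamond-Blackfan anaemia, an inherited failure of red cell production, 10 were lower in immunised CNS than in naive cells, with a median of −0.57, against 27.8% of all genes. They include Rps19, the first such gene known, at −0.72 ± 0.27 (adjusted p = 0.04996), a call lost in 13 of 23 alternatives. In the whole family, which holds these genes, 18 of 82 were lower in that comparison, with a median of −0.47. The family's count ranged from 2 to 51 with 1 array left out. In the other 4 comparisons 0 of the 19 passed. Around the exit tunnel, 1 of 9 genes (Rpl31) was lower in immunised CNS than in naive cells, with a median of −0.46.

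Members with known roles outside the ribosome had small differences. Rps6, the substrate of S6 kinase, differed from naive cells by −0.03 in cultured, −0.10 in transferred and −0.49 in immunised samples. Rpl13a, known for silencing inflammatory transcripts, differed by 0.04, −0.03 and −0.37. Rps3, which binds NF-kappaB, differed by −0.11, −0.22 and −0.52, and Rpl38, with a known role in translating selected mRNAs, by −0.02, 0.02 and −0.34. None of these 4 genes passed in any comparison.

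The genes were also set against their own median on each array. The median residual SD of a member then fell from 0.27 to 0.10, while that of other genes went from 0.33 to 0.40. Some fall for members is built in, because the median subtracted is their own. On this relative scale, chosen after the data were seen, few members departed from the rest. Rpl24, which bridges the subunits, was relatively higher by 0.52 ± 0.15 in cultured (adjusted p = 0.0257) and 0.46 ± 0.15 in transferred cells (adjusted p = 0.0377), each against naive cells. Its levels were 7.84, 7.37 and 7.43 in naive, 7.87, 7.90 and 8.53 in cultured, 7.95, 8.01 and 7.86 in transferred and 7.47, 7.50 and 7.49 in immunised samples. Every cultured and transferred array was above every naive array. Rps15a was relatively lower by 0.57 ± 0.20 in immunised CNS than in naive cells (adjusted p = 0.0437). Rps27l and Rps4y2 were also called, and 0 members were called between the CNS groups. On that scale 30.6%, 19.7%, 37.8%, 37.6% and 5.33% of all genes were called in the 5 comparisons, in the order given above.

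Several probes of a gene mostly moved together. Of 56 genes with several tested probes, the range of the differences between a gene's probes had a median of 0.14 log2 in cultured Th17 against naive cells and 0.11 in immunised CNS against naive cells. All 3 Rpl24 probes gave positive differences in culture, 0.55, 0.71 and 0.56. The second Rps15a probe, nearly as bright, gave −0.57 in immunised CNS against naive cells (adjusted p = 0.07), beside −1.05 for the brightest. The family's median there was −0.47, so the relative shift of Rps15a rests on its brightest probe. Fitted singly, 44 of 181 probes were lower in that comparison, against 28.3% of all probes. For 29 of the 84 genes the probe shared a run of 30 bases with a probe of another name, and for Rps27 and Rps29 the probe's mm9 chromosome was not that of the gene in RefSeq, and signal from gene copies was not separated there.

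The region around the start of these genes was read from RefSeq windows (GRCm38.p6), which were listed for 63 of the genes. Either CTTTC or CTTCC, pyrimidine runs read on the gene's strand only and able to overlap, lay within 20 bases of a listed start in 30 of 63 genes (47.6%), against 15.8% of 27025 genes. CTTTC alone was found in 30.2% against 6.44%, and CTTCC alone in 27.0% against 10.3%. Read on both strands, either run was found in 65.1% against 29.5%. CCGGAAG, on either strand and anywhere from 250 bases before to 50 after the start, was found in 39.7% against 9.93%. The windows below run from 20 bases before to 10 from the start. They are those of the riser Rps27l, its relative Rps27, and Rpl24 and Rps15a, which had relative shifts by their brightest probes. Capitals mark CTTTC (with a following C where present) and CTTCC.
Rps27: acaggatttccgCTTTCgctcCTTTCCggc
Rps27l: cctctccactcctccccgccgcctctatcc
Rpl24: taggaagaaagctgttgctaggaaacagac
Rps15a: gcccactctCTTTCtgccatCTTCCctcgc
They lie at chr3:90213639-90213668 (minus strand), chr9:66946066-66946095 (plus strand, the first of 2 listed starts), chr16:55966255-55966284 (plus strand) and chr7:118116138-118116167 (minus strand). Rps27 and Rps15a hold these runs in the window, and Rps27l and Rpl24 do not. A match is a description of the letters only.

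Other genes that make or use ribosomes were read from lists. Of 44 ribosome assembly genes, 19 were lower and 0 higher in cultured Th17 than in naive cells, with a median of −0.55, against 20.3% of all genes lower. They included Pes1 at −2.10, Utp20 at −1.63 and Tcof1, a factor for rRNA synthesis, at −1.58. After transfer 8 were higher than in culture and 0 lower, against 12.8% and 15.5% of all genes, among them Pes1 at 1.60 and Utp20 at 1.18. In immunised CNS cells 22 were lower than in naive cells and 0 higher, against 27.8% and 20.6% of all genes, with Tsr1 at −1.81. In transferred CNS cells 6 were lower than in naive cells and 2 higher, against 26.5% and 21.2% of all genes. Of 12 genes for rRNA transcription 4 were lower and 1 higher in culture, against 20.3% and 19.7% of all genes, with the polymerase subunit gene Polr1d at 1.60 and Polr1b at −1.20. Ubtf, the factor that binds rRNA genes, was higher in transferred CNS than in naive cells by 1.91 ± 0.41 (adjusted p = 0.0033).

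Initiation factors, which load mRNA onto the small subunit, had 8 of 24 genes higher and 1 lower in culture, against 19.7% and 20.3% of all genes, with Eif2s2 at 1.32 and Eif1a at 1.25. Of 76 mitochondrial ribosomal protein genes, which serve the mitochondrion's own ribosome, 15 were higher and 4 lower in culture, and the share higher, 19.7%, equals that of all genes. After transfer, 0 were higher and 13 lower than in culture, for example Mrpl44 at −1.24, and the share lower, 17.1%, is near the 15.5% of all genes. Of 16 non-ribosomal genes whose mRNAs carry the same 5′ pyrimidine tract, 3 were higher in culture, namely Eif4b at 0.95, Nap1l1 at 0.72 and Pabpc1 at 0.62, a share of 18.8% that is near the background of 19.7%. Of 4 ribosomal proteins with other names, Rpsa and Fau among them, none passed in any comparison. Among 24 genes of mTOR and Myc control, 7 were higher and 9 lower in culture, against 19.7% and 20.3% of all genes. Myc, which drives ribosome production, had mean levels of 1.22, 1.88, 1.26 and 0.40 in naive, cultured, transferred and immunised samples, higher in culture than in naive cells (adjusted p = 0.0301) and lower in immunised CNS than in naive cells (adjusted p = 0.0084).

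**Figure D5:**
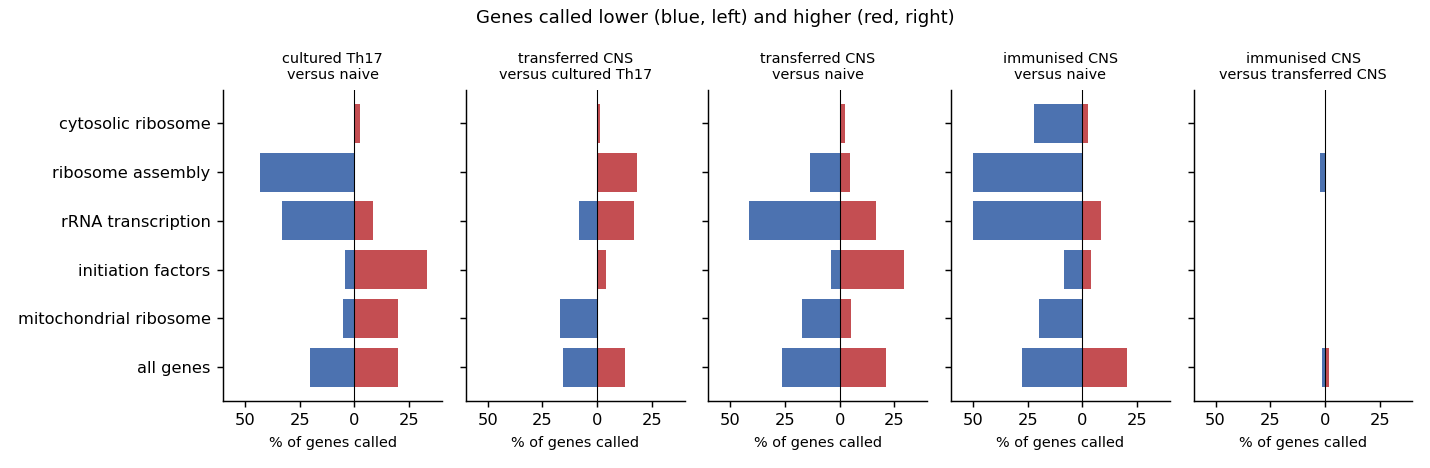
Percent of the tested genes of each list called lower (blue, to the left) and higher (red, to the right) in the 5 comparisons, with all genes for reference. Ribosome assembly genes are called lower in culture (19 of 44) and in immunised CNS cells (22 of 44), while cytosolic ribosomal protein genes have 0 to 2 calls outside the immunised against naive comparison.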

How the data were processed

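Scanner intensity values of every spot were deposited by the authors and made with Agilent Feature Extraction 10.7.3.1, per the file headers. A deposited matrix of intensity values, with normalization not stated, served as an alternative. Outlier spots were left out, repeated spots averaged, and each array's log2 processed signal set against the 75th percentile of its non-control probes, which was 658 to 940. Between 57.0% and 64.8% of probes per array were well above background. Each gene name was represented by its brightest probe and tested where some group had it well above background on each of its 3 arrays (18645 genes). A single limma 3.58.1 model covered the 12 arrays (R 4.3.3) with Benjamini-Hochberg adjustment, called under 0.05 (two-sided). SE is that of the fit, SD that of 3 arrays. The fit was tested on simulated data.

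The members and lists were chosen with earlier results of these data known. Named genes were the 4 largest rises and falls among called members whose arrays do not overlap, stalk, 5S particle and paralogue genes, 6 members with known other roles, the brightest and dimmest, and up to 3 called genes per other list. A few of these are not reported here. Replicate numbers also mark the slide, and a group always had the same place on the slide, so group and place cannot be told apart. Best-probe accessions matched RefSeq for 77 of 84 genes, 6 more matched by symbol and 1 by synonym. Alternatives were other scalings, filters, probe choices, samples and leaving out each array. Only 3 arrays per group limit the precision. Python 3.11.15 was used for tables and figures.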

Additional observations from a re-analysis of the deposited data

How the results depend on the processing

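The counts of members called, the members' medians and the differences of called members were recomputed under 23 alternatives. The results of the gene lists, of single genes outside the family and of overlap between groups were not recomputed. The rises of Rps27l (3 comparisons) and of Rps4y2 in CNS cells (3 comparisons) and the fall of Rps15a in immunised CNS against naive cells kept their direction and call in all 23. The rise of Rps4y2 in culture lost its call in 15. Rps24, lower in immunised CNS than in naive cells, was at 0.021 relative to the members' own median. For cultured Th17 against naive cells, members called higher were 4 under quantile normalization and in the authors' values, and 1 under median scaling, without a filter on dim probes, with the replicate block or with only the 6 arrays compared. Members called lower there were 8 under quantile normalization and in the authors' values and 12 with normexp and quantile. With the mean of all probes, the mean of other genes or the members' median, 1 was lower. Over all genes, 3587 were higher and 4249 lower under quantile normalization, and 3590 and 4236 in the authors' values. With normexp and quantile, 3426 of all 18645 genes were higher and 4298 lower. For transferred CNS against cultured Th17 cells, normexp and quantile gave 2 higher, and quantile normalization, normexp and quantile, and the authors' values gave 1 lower each. Over all genes these gave 3121, 3031 and 3119 lower, and normexp and quantile gave 2346 higher. For transferred CNS against naive cells, normexp and quantile gave 4 higher and 8 lower, and quantile normalization and the authors' values gave 6 lower each. Over all genes there, normexp and quantile gave 3694 higher and 5558 lower. Quantile normalization gave 5696 of all genes lower and the authors' values 5684. For immunised CNS against naive cells, 4 were lower under median scaling and 2 against the members' median, and the median was −0.13 under quantile normalization, −0.15 with normexp and quantile, −0.13 in the authors' values and 0.0058 against the members' median, where it lies near 0 by construction. For immunised against transferred CNS cells, 1 was lower under quantile normalization, normexp and quantile, the authors' values and the mean of all probes, and 3 with only the 6 arrays. Over all genes, 312, 333 and 317 were lower under the first 3. The median there was −0.0705, −0.0737 and −0.0700 under the first 3 and −0.0355 against the members' median. The cause of these shifts was not tested.

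With 1 array left out, the medians ranged from −0.23 to 0.15, −0.20 to 0.18, −0.15 to 0.11, −0.60 to −0.33 and −0.48 to −0.44 in the order of the report. Genes called higher ranged from 1 to 2, 1 to 1, 2 to 3, 2 to 2 and 0 to 0, and genes called lower from 0 to 6, 0 to 1, 0 to 1, 2 to 51 and 0 to 4. No share of all genes was computed for these fits. To look for pairing, each gene's group mean was subtracted and the remaining deviations were correlated between samples of different groups. With the same replicate number these correlations lay between −0.20 and 0.20 over genes, above 0.1 in 4 of 18 pairs. With different numbers they lay between −0.31 and 0.33, so the data did not show that the numbers pair samples. With the replicate block 15 members were lower in immunised CNS than in naive cells in place of 18. Against the members' median, 5320 genes were higher and 1690 lower in that comparison, in place of 3847 and 5176.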

Other observations

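Since Rps27l is known as a target of p53, 4 other genes of that pathway were looked up after its values were seen, and they are given as values only. Cdkn1a, a cell cycle inhibitor, had mean levels of 2.88 ± 0.40 in cultured, 2.44 ± 0.62 in transferred and 2.44 ± 0.67 in immunised samples (SD, n = 3), and was well above background on 1 of 3 naive arrays. Mdm2, which restrains p53, was higher than in naive cells by 0.82 ± 0.22 in cultured (limma adjusted p = 0.0141) and 0.62 ± 0.22 in transferred CNS cells (adjusted p = 0.0394), and at 0.58 ± 0.22 in immunised CNS cells (adjusted p = 0.052). Sesn1, also a known p53 target, was lower than in naive cells, with differences of −3.07 in cultured, −2.27 in transferred and −2.31 in immunised samples (adjusted p at most 2.86e-05). Trp53 itself had mean levels of −0.73, −1.08, −1.80 and −1.84 in naive, cultured, transferred and immunised samples.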
